A study of Mus musculus with 10 samples.

Results

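Histone variants and spermatid chromatin packaging proteins were followed in the mouse testis through 7 genes, each chosen by its symbol in the platform's annotation: Tnp1, Prm3, H2al2a, H1f6, H3f3b, H2az1 and Macroh2a1. Each of the 7 was read by 1 probe, and all 7 probes passed the filter on dim values, among 6573 genes with a tested probe. Older symbols were accepted, such as H2afz for H2az1, H2afy for Macroh2a1 and Hist1h1t for H1f6. By chromosome, Tnp1 lies on 1, H2al2a on 2, H2az1 on 3, H3f3b on 11, Macroh2a1 and H1f6 on 13, and Prm3 on 16.

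The animals were 15 male BALB/c mice, 9 weeks old, in 5 groups of 3. TSA mice received trichostatin A, an inhibitor of histone deacetylases, as 60 µg in 1 injection under the skin, and were killed at 2.5, 5, 7.5 or 10 h. Control mice received the carrier, dimethylsulfoxide and PBS, and were killed at 10 h, so only the 10 h TSA group was matched to them in time. RNA of the 3 mice in a group was combined and read on 2 technical arrays of 1 colour, which leaves each group with n = 1 pool and no measure of the spread between animals.

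In the spermatid most histones are taken off the DNA and replaced, first by transition proteins and then by protamines, small basic proteins that pack the sperm nucleus tightly. Histone variants prepare this exchange, and a wave of histone acetylation, the mark that TSA preserves by blocking its removal, comes just before it. Transcription stops as the nucleus condenses, so transcripts of the packaging proteins are made early, in round spermatids, and stored. TNP1 is a transition protein. Prm3 lies in the protamine gene cluster, but its mouse product is an acidic protein described in the cytoplasm, so its place among packaging proteins rests on its gene family and not on a known role in DNA packing. H2AL2, the product of H2al2a, is an H2A variant of condensing spermatids that opens nucleosomes to transition proteins. H1f6 encodes H1T, the linker histone of pachytene spermatocytes, the cells in mid-meiosis. H3f3b encodes H3.3, the H3 variant laid down outside DNA replication, and the same protein is made from H3f3a. H2az1 encodes H2A.Z, found at promoters, and Macroh2a1 encodes macroH2A1, a variant with a large extra domain that is found on silent chromatin, the condensed sex chromosomes of meiosis included.

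The promoter sequences of 4 genes are shown because these were the genes whose arrays lay on one side of the control at every hour, as given further on: Prm3, H2al2a and H3f3b above it and Macroh2a1 below it. They come from RefSeq on GRCm38.p6 and run from 250 bases before to 50 bases after the annotated start, read along the gene, which is the minus strand for all 4. Capitals mark matches on either strand to TGACG, the core of the cyclic AMP response element that the spermatid activator CREM binds, to TATAAA, to CCAAT, or to GGGCGG, the GC box.
Prm3, chr16:10790865-10791164: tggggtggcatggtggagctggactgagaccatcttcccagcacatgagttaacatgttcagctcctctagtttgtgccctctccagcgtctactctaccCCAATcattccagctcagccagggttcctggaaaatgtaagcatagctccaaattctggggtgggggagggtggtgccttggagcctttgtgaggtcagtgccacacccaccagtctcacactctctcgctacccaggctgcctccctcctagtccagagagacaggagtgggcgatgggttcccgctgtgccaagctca
H2al2a, chr2:17996909-17997208: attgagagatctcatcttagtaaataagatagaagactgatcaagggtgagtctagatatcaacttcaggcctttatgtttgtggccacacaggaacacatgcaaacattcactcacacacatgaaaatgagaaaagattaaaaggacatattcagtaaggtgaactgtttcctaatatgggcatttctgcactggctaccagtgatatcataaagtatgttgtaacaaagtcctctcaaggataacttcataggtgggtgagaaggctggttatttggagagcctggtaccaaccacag
H3f3b, chr11:116024455-116024754: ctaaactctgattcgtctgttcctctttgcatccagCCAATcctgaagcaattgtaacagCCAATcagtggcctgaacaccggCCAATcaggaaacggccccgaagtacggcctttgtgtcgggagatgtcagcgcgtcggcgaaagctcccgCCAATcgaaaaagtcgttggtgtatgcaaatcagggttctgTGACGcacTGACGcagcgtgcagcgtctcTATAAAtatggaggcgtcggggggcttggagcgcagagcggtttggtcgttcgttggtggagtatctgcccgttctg
Macroh2a1, chr13:56135501-56135800: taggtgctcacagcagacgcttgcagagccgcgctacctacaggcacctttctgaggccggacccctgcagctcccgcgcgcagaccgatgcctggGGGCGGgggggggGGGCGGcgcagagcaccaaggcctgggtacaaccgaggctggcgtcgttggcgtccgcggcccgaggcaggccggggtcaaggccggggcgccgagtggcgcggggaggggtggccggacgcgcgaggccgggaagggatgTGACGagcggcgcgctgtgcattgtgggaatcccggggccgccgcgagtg

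Counted from the start site, the H3f3b window held 2 TGACG matches at -56 and -48, TATAAA at -27 and 4 CCAAT matches. The Macroh2a1 window held TGACG at 1 and 2 GC boxes at -154 and -141. Prm3 had a single CCAAT at -150, and the windows of H2al2a and of Tnp1 held none of these motifs. H2az1 had 3 CCAAT and 2 GGGCGG matches, and H1f6 had 1 of each. The full element TGACGTCA, which contains TGACG, was in none of the 7 windows. Over all 32851 mouse promoter windows of 300 bases, TGACGTCA was found in 1.79%, TGACG in 20.8%, TATAAA in 13.6%, CCAAT in 37.4% and GGGCGG in 35.7%. The windows also differed in composition. Macroh2a1, H2az1 and H3f3b had 37, 34 and 24 CpG dinucleotides, against 10, 6, 4 and 0 in H1f6, Tnp1, Prm3 and H2al2a and a median of 7 over all windows. GC content ranged from 39.7% in H2al2a to 74.3% in Macroh2a1, with a median of 52.7% over all windows. The gene higher at every hour by the largest fold and the gene lower at every hour thus shared none of the 4 motifs searched, and a match or its lack says nothing here of a factor's binding.

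The values are normalised intensities, not logarithms, with a median of 1.00 and a range of 0.0004 to 249.5 on each array. The sorted values were identical on all 10 arrays, so an intensity stands for a rank among probes, and for very bright probes the steps between ranks are coarse. Differences are given as log2 folds of a TSA pool over the control pool, with the standard error (SE) of the duplicate arrays. Levels of different probes are not set against each other, because probes differ in how brightly they bind. Across tested probes duplicate arrays correlated at r of 0.995 to 0.998, and a single array had an SD of 0.0934 to 0.163 on the log2 scale.

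**Figure D1:**
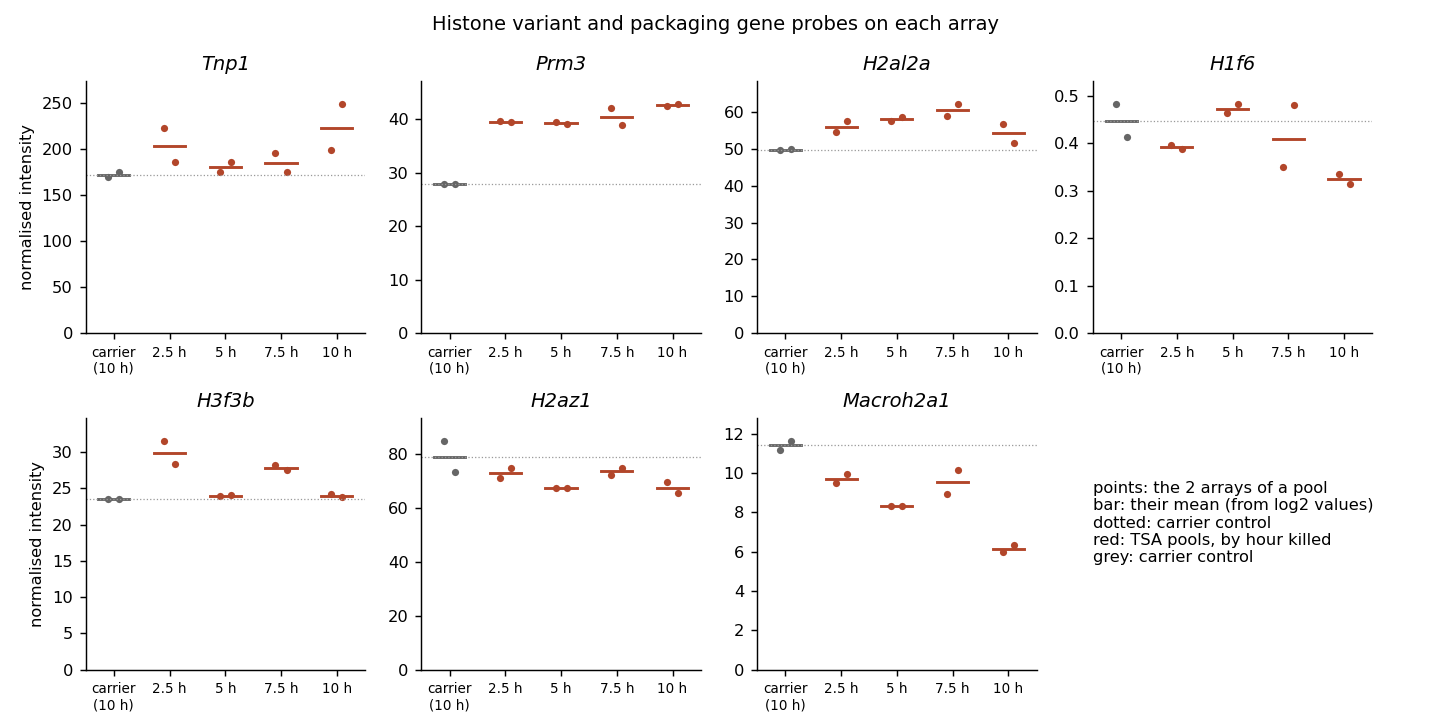
Normalised intensity (linear axis from 0, one scale for each gene) of the 7 genes on each array, with points for the 2 arrays of a pool, a bar for their mean and a dotted line at the control. All 8 TSA arrays lie above both control arrays for Prm3, H2al2a and H3f3b and below both for Macroh2a1.

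Prm3, which has no known role in DNA packing, had a clearer difference than the transition protein gene Tnp1. Its intensity was 27.9 and 27.9 on the control arrays, then 39.7 and 39.4 at 2.5 h, 39.4 and 39.1 at 5 h, 42.05 and 38.95 at 7.5 h, and 42.5 and 42.9 at 10 h. All 8 TSA arrays lay above both control arrays, and the TSA pools lay close to one another. Log2 folds over control were 0.50 ± 0.0050 at 2.5 h, 0.49 ± 0.0054 at 5 h, 0.54 ± 0.055 at 7.5 h and 0.61 ± 0.0062 at 10 h (SE of duplicate arrays), or 1.42-, 1.41-, 1.45- and 1.53-fold. The difference was thus already there in the earliest pool, and the later pools added at most 0.11 to it. Testis RNA is a mixture, so fewer or more cells of a type and less or more RNA per cell cannot be told apart, here or in any result that follows.

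Tnp1 was among the brightest probes of the table, at ranks 1 to 16. Its intensity was 169.6 and 175 on the control arrays, then 223 and 186 at 2.5 h, 175 and 186 at 5 h, 197 and 175 at 7.5 h, and 199 and 249.5 at 10 h. Both arrays lay above both control arrays at 2.5 and 10 h, whereas at 5 and 7.5 h one TSA array equalled the higher control array. Log2 folds were 0.24 ± 0.13, 0.068 ± 0.051, 0.11 ± 0.087 and 0.37 ± 0.17 at 2.5, 5, 7.5 and 10 h (SE of duplicate arrays). The control arrays stood at ranks 16 and 15 and the 10 h arrays at ranks 10 and 1. The 10 h duplicates thus lay further from each other than the lower of them lay from the control arrays. The mean log2 fold over the 4 TSA pools was 0.20 ± 0.15, and it turned to -0.08 when each array was centred within bins of probe ID number, an alternative taken up further on. The 10 h arrays of Tnp1 lay above both arrays of the 5 and 7.5 h pools, and the arrays of all other pairs of TSA pools overlapped or shared a value.

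Of the variants made in germ cells, H2al2a was slightly higher at every hour. Its intensity was 49.7 and 49.9 on the control arrays, 54.5 and 57.6 at 2.5 h, 57.5 and 58.6 at 5 h, 58.9 and 62.2 at 7.5 h, and 56.8 and 51.6 at 10 h. All 8 TSA arrays lay above both control arrays, by log2 folds of 0.17 ± 0.039, 0.22 ± 0.015, 0.28 ± 0.039 and 0.12 ± 0.069 from 2.5 to 10 h. The 7.5 h arrays were the highest, the 10 h pool lay below them on both arrays, and neither the 5 h nor the 10 h arrays stood apart from those at 2.5 h. H2al2a belongs to a family with near-identical copies, and whether its probe also reads them was not tested. A relative of the same family, H2al1m, was on the table too and was looked up after its values were seen. H2al1m had log2 folds of 0.24 ± 0.22, 0.41 ± 0.21, 0.44 ± 0.21 and 0.45 ± 0.21 at 2.5, 5, 7.5 and 10 h.

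H1f6 was dim, below the median brightness of tested probes, and its arrays scattered most. Its intensity was 0.482 and 0.413 on the control arrays, 0.395 and 0.388 at 2.5 h, 0.463 and 0.481 at 5 h, 0.3496 and 0.4791 at 7.5 h, and 0.336 and 0.313 at 10 h. Values lay below both control arrays at 2.5 and 10 h and overlapped them at 5 and 7.5 h. Log2 folds were -0.19 ± 0.11, 0.08 ± 0.12, -0.13 ± 0.25 and -0.46 ± 0.12 in that order of hours. Over arrays left out the H1f6 fold took both signs at 5 h, from -0.06 to 0.22, and at 7.5 h, from -0.46 to 0.21, and the mean of the 4 pools ranged from -0.33 to -0.01. Without the second control array it was -0.03 at 5 h, and without the first 7.5 h array it was 0.10 at 7.5 h. The 10 h pool was the lowest of the 5 on both arrays, and the duplicates at 7.5 h spanned much of the range of the other pools.

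Of Macroh2a1, H3f3b and H2az1, the replacement variants that all cells make, Macroh2a1 had the largest difference, with lower values after TSA. Its intensity was 11.2 and 11.6 on the control arrays, 9.48 and 9.94 at 2.5 h, 8.32 and 8.30 at 5 h, 8.94 and 10.2 at 7.5 h, and 5.99 and 6.33 at 10 h. All 8 TSA arrays lay below both control arrays, and both 10 h arrays lay below every other array. Log2 folds were -0.23 ± 0.045, -0.46 ± 0.030, -0.26 ± 0.098 and -0.89 ± 0.050 from 2.5 to 10 h, the last a level 1.85-fold lower than control in the only time-matched comparison. At 10 h Macroh2a1 stood at the 2.56 percentile of the folds of all tested probes.

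H3f3b differed between TSA pools. Its intensity was 23.6 and 23.5 on the control arrays, 31.6 and 28.3 at 2.5 h, 23.97 and 24.08 at 5 h, 28.2 and 27.5 at 7.5 h, and 24.2 and 23.8 at 10 h. Every TSA array lay above both control arrays, but by little at 5 and 10 h. Log2 folds were 0.35 ± 0.079 at 2.5 h and 0.24 ± 0.017 at 7.5 h, and only 0.03 ± 0.0036 at 5 h and 0.03 ± 0.013 at 10 h. The mean over the 4 TSA pools, 0.16 ± 0.16, turned to -0.14 with centring on probes of like ID number.

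H2az1 had means below control in every TSA pool, by amounts that rested on the control duplicates. Arrays read 85.1 and 73.5 for the control pool, 71.1 and 75.1 at 2.5 h, 67.5 and 67.5 at 5 h, 72.3 and 75.1 at 7.5 h, and 69.6 and 65.5 at 10 h. The 5 and 10 h arrays lay below both control arrays, and at 2.5 and 7.5 h 1 array lay between them. Log2 folds ranged from -0.23 to -0.10, each with an SE of 0.11, which comes mostly from the spread of the control duplicates. Over arrays left out the mean log2 fold ranged from -0.28 to -0.06, and without the first array of every pool the folds at 2.5 and 7.5 h were 0.03. Without the first control array alone they were -0.0092 and 0.0029.

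**Figure D2:**
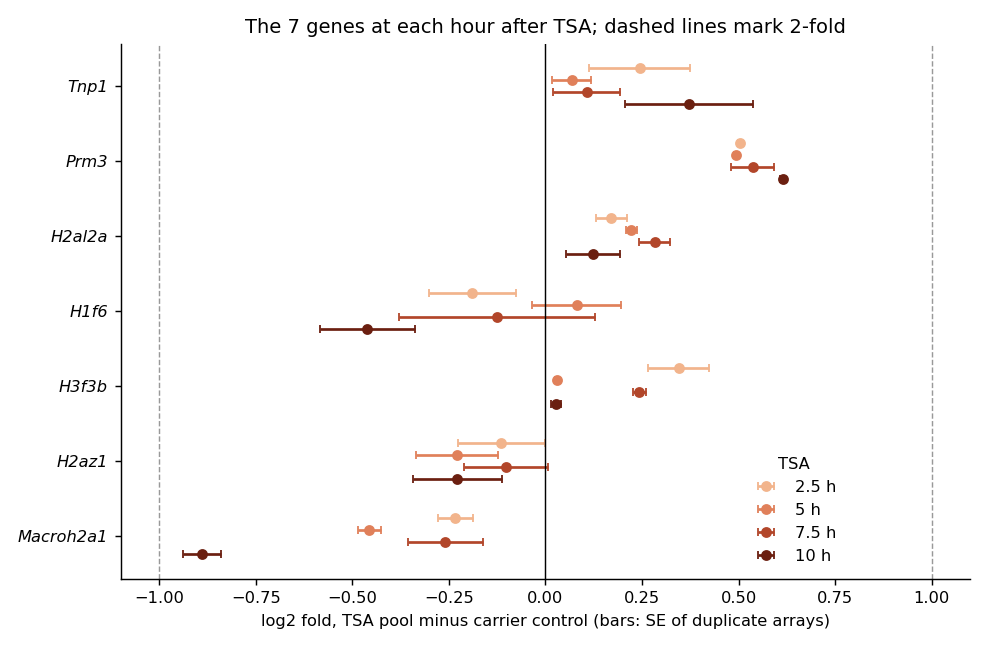
Log2 fold of each TSA pool over the control pool (x axis) for the 7 genes (y axis), with 1 marker for each hour killed, bars for the SE of the duplicate arrays and dashed lines at a 2-fold difference. The 4 markers of Prm3 lie together between 0.49 and 0.61, and those of Macroh2a1 spread down to -0.89 at 10 h.

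No gene of the 7 met the size rule at any hour, which asks for a 2-fold difference with both arrays of a pool beyond both control arrays. Of all 7422 tested probes 0.674% met it upward and 0.243% downward at 2.5 h, 1.21% and 0.337% at 5 h, 1.01% and 0.903% at 7.5 h, and 1.23% and 1.44% at 10 h. With a 1.5-fold limit Prm3 met it upward and Macroh2a1 downward at 10 h, as did 8.58% and 7.87% of all probes, and none of the 7 did at 2.5 h (5.27% of all probes upward and 2.3% downward), at 5 h (5.25% and 4.58%) or at 7.5 h (6.32% and 5.48%). Arrays beyond both control arrays were common. At 2.5 h 4 of 7 genes were higher and 2 lower by that measure, against 35.5% and 39.8% of all probes, at 5 h 3 and 2 (35.8% and 42.8%), at 7.5 h 3 and 1 (36.5% and 38.6%), and at 10 h 4 and 3 (39.8% and 38.6%). At all 4 hours 3 genes were higher (Prm3, H2al2a and H3f3b) and 1 lower (Macroh2a1), where 22.2% of all probes were higher and 23% lower. The counts are a description of 7 chosen genes, set beside those shares with no test.

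**Figure D3:**
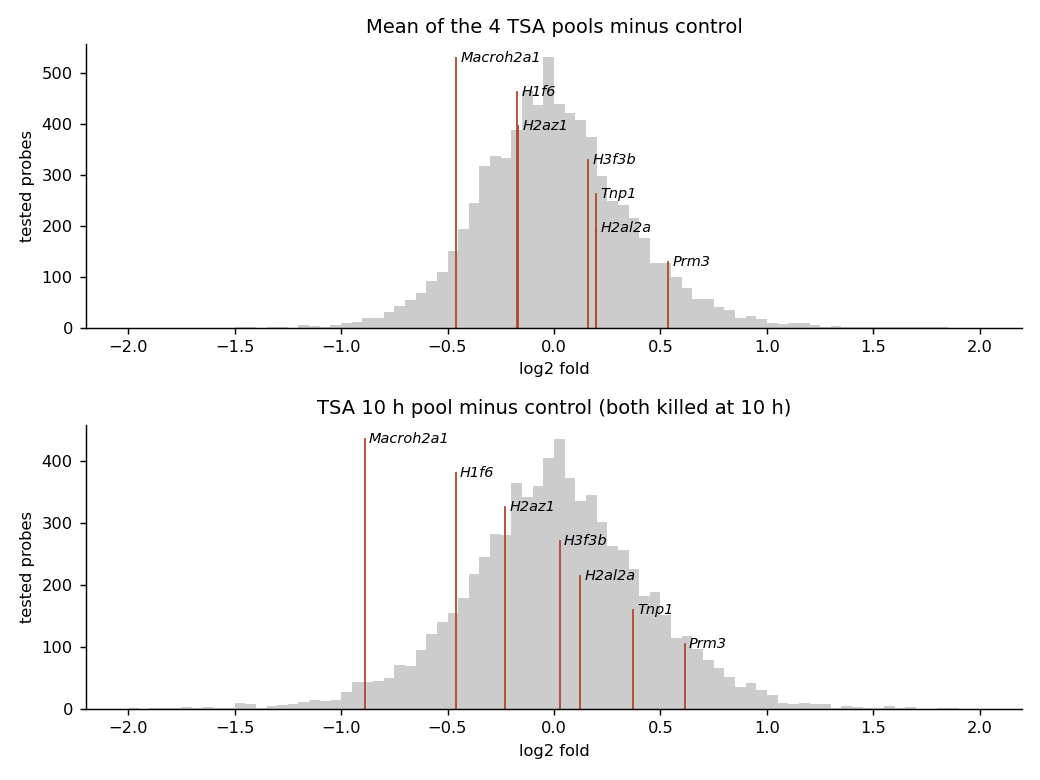
Number of tested probes (y axis) by log2 fold (x axis), for the mean of the 4 TSA pools against control and for the 10 h pool against control, with lines, whose heights carry no value, at the 7 genes. The 6 probes with the largest folds lie outside the axis in each panel. Prm3 lies on the upper side in both and Macroh2a1 in the lower tail at 10 h, within the range of the other probes.

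The tests used limma on the 5 pool means, and no group was replicated. The 4 TSA pools, each killed at its own hour, stood in as replicates against the 1 control pool killed at 10 h. For the 4 TSA pools against control, 0 of 7 genes passed an adjusted p of 0.05, where 2.74% of all probes passed as higher and 0.795% as lower. At an unadjusted p of 0.05 limma called 1 of the 7, Prm3, and 28.3% of all probes. The Prm3 log2 fold was 0.54 ± 0.11 (95% interval 0.27 to 0.80), with an unadjusted p of 0.00218 and an adjusted p of 0.0523 by limma. It missed the limit narrowly. Fits with a random or replicate block, which take technical duplicates as added samples, were among the 6 of 25 alternatives under which it passed. One of these left out 1 library, the second control array, which gave an adjusted p of 0.0449 by limma. Macroh2a1 had -0.46 ± 0.25 (95% interval -1.06 to 0.14, adjusted p = 0.272), a wide interval because its 10 h pool stood apart from the earlier ones. The intervals for the other 5 genes all included 0. H2al2a was at 0.20 ± 0.12 (adjusted p = 0.298), H2az1 at -0.17 ± 0.12 (adjusted p = 0.377), H1f6 at -0.17 ± 0.20 (adjusted p = 0.595), Tnp1 at 0.20 ± 0.15 (adjusted p = 0.414), and H3f3b at 0.16 ± 0.16 (adjusted p = 0.537), all by limma and the last pair turning negative under ID-number centring.

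The slope over hours set the control at 0 h, although that pool was killed at 10 h. The slope likewise passed for 0 of 7 genes by limma, where 0.35% of all probes passed as rising and 1.66% as falling. At an unadjusted p of 0.05 limma called Macroh2a1 and Prm3, and 25.1% of all probes. Macroh2a1 had the steepest slope of the 7, -0.0722 ± 0.0207 log2 units per hour (95% interval -0.121 to -0.0233, adjusted p = 0.105 by limma). Prm3 had 0.0504 ± 0.0185 (adjusted p = 0.154), from a step at the first pool rather than a climb. The other 5 slopes had adjusted p-values of 0.321 for H1f6, 0.401 for Tnp1, 0.472 for H2az1, 0.609 for H2al2a and 0.962 for H3f3b by limma. With the pool as a random block on the 10 arrays, limma gave an adjusted p of 0.0293 for the Macroh2a1 slope and 0.0492 for the Prm3 slope. That fit takes the technical duplicates of a pool as added samples, although they add no mice. It called 719 of all tested probes for the slope, where the fit on pool means called 149. These 2 p-values therefore cannot decide whether the slopes hold between animals.

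Setting TSA pools against each other leaves the single control pool out. Macroh2a1 at 10 h against 7.5 h differed by -0.63 ± 0.10, at the 1.118 percentile of tested probes, and at 10 h against 2.5 h by -0.66 ± 0.052, at the 2.92 percentile. Both 10 h arrays lay below both earlier arrays in each case, as for 27.6% and 31.4% of all probes. H3f3b differed by -0.32 ± 0.079 at 5 h against 2.5 h, by 0.21 ± 0.017 at 7.5 h against 5 h and by -0.22 ± 0.021 at 10 h against 7.5 h. Its arrays did not overlap in any of these 3 pairs, as for 34%, 33.5% and 27.6% of all probes in the same direction. H1f6 at 5 h against 2.5 h differed by 0.27 ± 0.032, and at 10 h against 7.5 h by -0.34 ± 0.23. Prm3 at 10 h against 2.5 h differed by 0.11 ± 0.0075. Each of these compares 1 pool with 1 pool and has no test.

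Patterns over the 4 TSA pools were set beside all tested probes by the root mean square difference of the 4 log2 folds. The nearest to Macroh2a1 were Ylpm1 (0.066) and Map2k5 (0.0734), with only 9 probes within 0.1. H1f6 was nearest to Rbks (0.0746) and Ccdc127 (0.0807), with 7 probes within 0.1. For Prm3 they were Acvr1b (0.0383) and Islr (0.0412), with 143 probes within 0.1. Tnp1 was nearest to Zfp92 (0.021) and Tmem45a (0.0314), and H3f3b to Aspm (0.0202) and Fam207a (0.0251), with 119 and 104 probes within 0.1. H2al2a was nearest to Zfp296 (0.033) and Eml2 (0.0336), and H2az1 to Ndufaf3 (0.0245) and Ormdl2 (0.0268), with 257 and 400 probes within 0.1. The small differences in log2 folds shared by many probes are those of H2az1 and H2al2a, whereas few probes lay near Macroh2a1. Few probes had a fold as low as its -0.89 at 10 h (the 2.56 percentile), so its count adds no separate result. Its SE of duplicate arrays also reached 0.098 at 7.5 h. H1f6 also had few probes within 0.1, but the SE of its duplicate arrays was 0.11 to 0.25. Its count therefore cannot tell a less common pattern from the scatter of a dim probe. All folds use the same control pool.

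The other genes of the pathway came from lists on histones, their carriers and the exchange. Of 5 protamine and transition protein genes only Tnp1 and Prm3 were on the table, and Prm1, Prm2 and Tnp2 were not analysed here. Of 3 testis linker histones H1f6 and Hils1 were tested, and of 13 testis core variants H2al2a and H2ap, and none passed either limma test. Hils1, a linker histone of condensing spermatids, had a log2 fold of -0.13 ± 0.11 (adjusted p = 0.468) and H2ap -0.13 ± 0.12 (adjusted p = 0.490) by limma, and both turned to 0.17 with centring on probes of like ID number. Of 7 replacement variants tested none passed for TSA against control by limma (1 at an unadjusted p of 0.05) and 1, H2ax, fell over the hours, where 1.66% of all probes fell. H2ax encodes H2A.X, phosphorylated at DNA breaks and on the meiotic sex chromosomes. Its slope was -0.202 ± 0.0199 per hour (adjusted p = 0.0183 by limma), and its log2 fold over control reached -1.85 at 10 h, at a mean intensity of 0.136 against 0.490 in control. Its 7.5 and 10 h means were below the filter on dim values (0.207), which it passed through its brighter pools. With an offset on the log scale its slope was -0.111 (adjusted p = 0.016 by limma). The slope of H2az2, the second H2A.Z gene, did not pass, and its mean log2 fold was 0.15 ± 0.12. The median log2 fold of the 7 replacement variants was 0.08, against -0.02 over all tested probes. Of 59 replication-dependent histone genes 3 were on the table and 2 tested, H4c9 and H1f2, and neither passed. H3c1, also of that kind, was looked up after its values were seen and had a log2 fold of 0.05 ± 0.14 (adjusted p = 0.858 by limma). Their transcripts mostly lack poly(A) tails, and the labelling began from a poly(A) primer.

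Histone chaperones carry histones to and from DNA. Of 21 tested chaperones and variant loaders none passed either limma test and 4 had an unadjusted p under 0.05 against control, where 28.3% of all probes did. In direction, 13 were lower than control in all 4 TSA pools and 4 higher, where 2529 and 2397 of 7422 tested probes were. Their median log2 fold was -0.25. Nap1l4, a chaperone of H2A and H2B, came nearest at -0.89 ± 0.18 (adjusted p = 0.0521 by limma), with mean intensities of 1.80 in control and 1.18, 0.967, 0.856 and 0.900 from 2.5 to 10 h. It met the 2-fold size rule at 7.5 and 10 h. The passes of Nap1l4 and Ruvbl1 given next include both block fits on the 10 arrays, which take technical duplicates as added samples. Nap1l4 passed for TSA against control under 7 of 25 alternatives, 2 of which left out 1 control array (adjusted p = 0.0494 without the first and 0.0472 without the second, by limma), and for the slope under 4 of 26. Ruvbl1, an ATPase of the complexes that place H2A.Z, had -0.51 ± 0.12 (adjusted p = 0.0663) and passed under 5 of 25 alternatives, among them leaving out the second control array (adjusted p = 0.0482 by limma). Other loaders on the list did not share its direction. Ruvbl2 (0.23 ± 0.11), Vps72 (0.24 ± 0.10) and Ep400 (0.07 ± 0.11) were higher in all 4 TSA pools. Znhit1 was at 0.03 ± 0.11, and Yeats4 was lower at -0.23 ± 0.12. Chaf1a, which delivers H3 and H4 to new DNA, had -0.39 ± 0.16, and the histone binders Rbbp7 and Rbbp4 had -0.37 ± 0.16 and -0.31 ± 0.14 as log2 folds, with adjusted p-values by limma above the limit.

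Of 19 tested regulators of the histone to protamine exchange 1 fell in TSA pools against control and 2 fell over the hours by limma, where 0.795% and 1.66% of all probes did, and 7 of 19 had an unadjusted p under 0.05 against control, where 28.3% of all probes did. In direction, 12 were lower in all 4 pools and 2 higher, beside 2529 and 2397 of all 7422 probes, and the median log2 fold was -0.19. Brdt, the testis reader of acetylated histones, had a dim probe, at a mean intensity of 0.595 against a median of 1.99 over tested probes. It fell by 0.79 on the log2 scale (SE 0.15, adjusted p = 0.0484 by limma), a call that ID-number centring lost (log2 fold -0.48). That call was lost under 16 alternatives, among them leaving out any 1 TSA pool (adjusted p of 0.0579 to 0.112 by limma). Kat5, the acetyltransferase TIP60, fell by 0.14 per hour (SE 0.0219, adjusted p = 0.0422), and Prmt5, an arginine methyltransferase, fell by 0.158 per hour (SE 0.0193, adjusted p = 0.0223). Kat5 had mean intensities of 1.01 in control, then 0.602, 0.506, 0.384 and 0.377 from 2.5 to 10 h, and it met the 2-fold rule at 7.5 and 10 h. Prmt5 had means of 0.866 in control and 0.277 at 10 h, the latter near the filter on dim values (0.207). Leaving out the first 7.5 h array lost both slopes, at an adjusted p of 0.0599 for Kat5 and 0.0627 for Prmt5 by limma. Leaving out the 2.5 h, the 10 h or the control pool lost the slopes of H2ax, Kat5 and Prmt5 alike, with adjusted p-values of 0.058 to 0.177 by limma. The Kat5 slope was also lost without the 5 h or the 7.5 h pool. In all it was lost under 10 of 25 alternatives, against 4 for H2ax and 6 for Prmt5. Taf7l, a TFIID subunit of germ cells, had -0.56 ± 0.11 (adjusted p = 0.0507), and it passed under 6 of 25 alternatives, among them leaving out the second control array (adjusted p = 0.0398), by limma. Ddx25, an RNA helicase needed to translate stored spermatid transcripts, had -0.43 ± 0.11 (adjusted p = 0.0717) and passed under 4 of 25 alternatives, and Piwil1 had -0.61 ± 0.23 (adjusted p = 0.147) by limma. The passes of Taf7l and Ddx25 included both block fits on the 10 arrays, which take technical duplicates as added samples. Camk4, a kinase that acts on CREM and protamine 2, had 0.24 ± 0.11 (adjusted p = 0.216 by limma). Lists were assembled with earlier results of these data known, and their counts are not independent evidence.

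**Figure D4:**
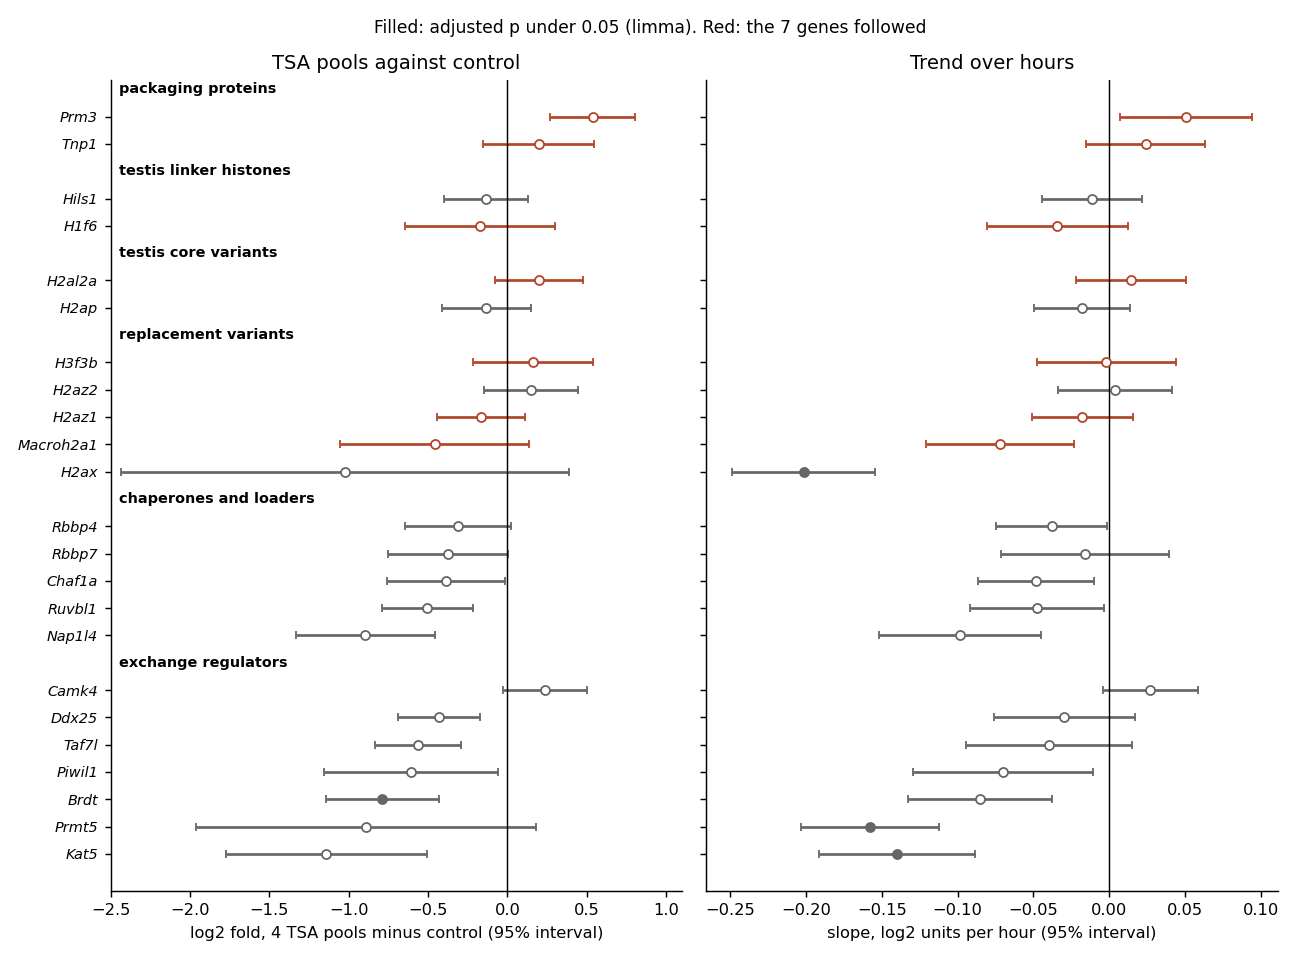
Log2 fold of TSA pools against control and slope per hour (x axes) for the 7 genes, in red, and the other named genes of the pathway, with 95% intervals from limma and filled points for an adjusted p under 0.05. None of the 7 points in red is filled, Brdt is for the fold, and H2ax, Kat5 and Prmt5 are for the slope.

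The tissue label was set against marker lists. Markers of round and elongating spermatids, the cells that hold most packaging transcripts, had a summed intensity of 1041 in control and 1028, 1069, 1084 and 1057 from 2.5 to 10 h, with 0 of 16 passing either limma test (5 at an unadjusted p of 0.05 against control, where 28.3% of all probes passed) and a median log2 fold of -0.02. The sum rests most on its brightest probes, such as Smcp at a mean of 234. Single spermatid markers differed, with 6 higher than control in all 4 TSA pools and 4 lower. Acrv1 had a log2 fold of 0.55 ± 0.13, near that of Prm3, and Hspa1l had -0.96 ± 0.24. Hspa1l met the 2-fold size rule downward at 7.5 and 10 h. Pachytene spermatocyte markers summed to 437.6 in control and 413, 406.7, 411.9 and 394.2 from 2.5 to 10 h, with 1 of 12 falling over the hours by limma (Tex101), where 1.66% of all probes fell. Of the 12 pachytene markers 9 were lower than control in all 4 TSA pools, where 2529 of 7422 tested probes were. By limma 4 of the 12 had an unadjusted p under 0.05 against control, where 28.3% of all probes did. Their median log2 fold was -0.25, against -0.02 over all tested probes. Sums of Sertoli markers were 56.3 to 63.4 in TSA pools against 56.1 in control, where the highest, at 5 h, included Trf at 5.17 against 1.13 in control, and of Leydig markers 160.4 to 196 in TSA pools against 165 in control. The defining markers Sox9 (Sertoli), Pecam1 and Cdh5 (vessel) and Adgre1 and Ptprc (macrophage and leukocyte) were below the filter on dim values. Transcripts of the liver stood out in 1 pool. The sum of 12 that passed the filter was 199.6 at 5 h, against 18.6 to 20.1 in the other TSA pools and 17.9 in control. Of the 16 measured, 4 were too dim, and Ttr and Apoa1 passed the filter with control means of 0.0951 and 0.0708, below it, so the number that differed is not counted. Serpina1b, above the filter in every pool, had a mean of 34.4 at 5 h against 2.04 in control. Without the 5 h pool the log2 fold over control was 0.55 ± 0.13 for Prm3 (adjusted p = 0.108) and -0.46 ± 0.28 for Macroh2a1 (adjusted p = 0.346) by limma. The part of these other cells in the results was not tested.

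Position on the table moved with the folds. When tested probes were put in 50 bins by ID number, the median log2 fold of a bin ranged from -0.17 to 0.23. The bin of Tnp1 was at 0.18, of H3f3b at 0.16, of Prm3 at 0.12, of H1f6 at 0.04, of H2al2a and H2az1 at 0.01 and of Macroh2a1 at -0.13. Centring made the median level of a bin equal on all arrays and did not subtract these median folds. A fold could therefore move by another amount than the median of its bin. That of H2al2a went from 0.20 to 0.08. Centred on these bins, the log2 fold of Prm3 was 0.48 (adjusted p = 0.0979), that of Macroh2a1 -0.28 (adjusted p = 0.4996) and at 10 h -0.72, and those of Tnp1 and H3f3b changed sign, all by limma. Medians by brightness differed little, from -0.0288 to -0.0022 over 10 classes of brightness.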

How the data were processed

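Testis RNA from 5 pools of 3 mice was read on 10 CodeLink arrays, 2 per pool, labelled with Cy5 per the labels. The deposited table holds normalised intensity for 10012 probes, of which 115 had no value. The sorted values of all arrays are identical, so the authors' intensity values had been quantile normalised. The scanner program, background correction and spot flags: not given in the sources used here. In the platform table, 8983 probes carried 1 symbol, 1 several and 1028 none, and 8975 were matched by gene identifier to the mouse gene table.

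Values under the 5th percentile (0.0364) were raised to it, log2 was taken, arrays were set to a common median, and the dimmest 25% (mean intensity under 0.207) were left out, which kept 7422 probes. The size rule (2-fold, both arrays beyond both control arrays) has no p-value. Testing was done with limma 3.58.1 (R 4.3.3) on means of the 5 pools, with 3 residual degrees of freedom, two-sided p-values and Benjamini-Hochberg adjustment over all probes. The single control pool is assumed to have the spread of the TSA pools. Errors from duplicate arrays are technical. The number of pools limits the precision of the limma tests.

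Named genes were the 7 genes. From each pathway list they were every gene passing a test or the size rule and up to 4 more of largest mean fold above the median intensity (1.99). From the cell type lists they were the defining markers and any gene that passed a test. Members and lists were chosen with earlier results of these data known. H2al1m and H3c1 were added after their values were seen.

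Deviations of same-numbered arrays from their own pool means correlated at -0.187 to 0.14 over 10 pairs of pools, so the numbers do not pair arrays. The limma step was tested on simulated data. Alternatives were other filters, an offset, no floor, other size limits, arrays or pools left out, random and replicate blocks, and eBayes with trend and robust. Centring each array within 50 bins of probe ID number was added after the data were seen. Promoters are RefSeq's on GRCm38.p6. Gene coordinates are left out, since no build is named for the platform table. Figures used matplotlib 3.10.9 in Python 3.11.15.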

Additional observations from a re-analysis of the deposited data

How the results depend on the processing

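The number of genes called among the 7 stayed at 0 for the 2-fold size rule under every alternative except a 1.5-fold limit, which gave 2 at 10 h (Prm3 and Macroh2a1). For TSA against control it was 1 (Prm3) with the lowest 50% of probes left out (adjusted p = 0.0227), with an offset (0.0384), with the pool as a random block (0.00598), with the replicate block (0.0101) and with eBayes trend and robust (0.00627), and it ranged from 0 to 1 over arrays left out. Over 25 alternatives the adjusted p of Prm3 by limma ran from 0.00598 to 0.126. For the slope it was 2 with the random block (Prm3 and Macroh2a1) and 1 with the replicate block (Macroh2a1, adjusted p = 0.0332). Both block fits take the duplicate arrays of a pool as added samples, although these are technical and add no mice. The replicate numbers do not pair arrays.

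Counts of all probes moved more. The size rule called 68, 115, 142 and 198 at 2.5, 5, 7.5 and 10 h. It called 219, 355, 554 and 458 with no filter, 16, 27, 37 and 73 with the lowest 50% out, 18, 66, 39 and 71 with an offset, 562, 730, 876 and 1221 at 1.5-fold, and 12, 42, 16 and 29 at 3-fold. TSA against control called 262 probes by limma. It called 1 with no filter, 573 with the lowest 50% out, 1044 with the random block, 836 with the replicate block, 795 with eBayes trend and robust, 95 with ID-number centring, 3, 3, 6 and 7 without the 2.5, 5, 7.5 or 10 h pool, and 1 to 496 over arrays left out. The slope called 149. It called 0 with no filter, 0, 41, 29 and 0 without the 2.5, 5, 7.5 or 10 h pool, 0 without the control pool, 719 with the random block, 610 with the replicate block, 289 with eBayes trend and robust, 95 with ID-number centring, and 24 to 193 over arrays left out. Dropping pools leaves fewer samples, and dropping the filter adds dim probes; other causes were not tested.

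Directions turned only for values that passed no test. With ID-number centring the log2 folds of Tnp1 (-0.076), H3f3b (-0.14), Hils1 (0.17) and H2ap (0.17) and the slopes of Tnp1 (-0.00332), Hils1 (0.0207) and H2ap (0.0138) turned. Without the control pool the slopes of Ddx25 (0.01), H2al2a (-0.00339), H2az2 (-0.0155), Rbbp7 (0.0281) and Taf7l (0.0108) turned. Without the 7.5 h pool that of H2az2 (-0.000991) turned. The H3f3b slope ranged from -0.00506 to 0.00123 over arrays left out (highest without the first 2.5 h array), and it was 0.0102 with the 2.5 h pool left out, 0.0164 with the 10 h pool left out, and the H2ap fold ranged from -0.3098 to 0.0442 over arrays left out (highest without the first array of every pool). At single hours the H1f6 fold at 5 and 7.5 h and the H2az1 fold at 2.5 and 7.5 h took both signs over arrays left out, and with ID-number centring the Tnp1 fold turned at all 4 hours and the H3f3b fold at 5, 7.5 and 10 h. The median log2 fold of all probes stayed between -0.0175 and -0.00671 under each scaling.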
